A study of Mus musculus with 24 samples.

Results

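Transcripts of 10 Notch pathway genes were followed through mouse embryonic stem cells (mESCs) that carried hairpins against subunits of the Mediator kinase module or against a Polycomb protein. The genes are the receptors Notch1, Notch2, Notch3 and Notch4, the ligands Dll1, Dll3, Jag1 and Jag2, and the target genes Hes1 and Hey1. They were taken by symbol from a table of 22609 gene symbols, in which each symbol occurred in all 24 libraries, and all 10 passed the low-count filter that 16280 symbols passed. In cells with the Med12 hairpin, Dll1 and Notch4 were lower and Notch3 was higher than in hairpin control cells, both in pluripotent culture and after retinoic acid (RA). Hes1 fell with RA in control cells and in cells with the Cdk8 hairpin, and averaged 19.5 CPM after RA and 19.3 CPM in pluripotent culture in cells with the Med12 hairpin.

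All cells were E14TG2a, a blastocyst-derived mESC line of the 129/Ola strain, grown without feeder cells. There were 8 groups of 3 libraries. In the RA state, cells stably transfected with shMed12, shCdk8 or shNMC had spent 24 h in 1e-06 M all-trans RA with LIF, the cytokine that holds mESCs undifferentiated, taken away. In the mESC state, cells with shMed12, shCdk8, shRing1b or shNMC and untransfected cells grew in serum with LIF. shNMC is a hairpin with no target in mammals, and shRing1b is directed against Rnf2, which encodes the Polycomb protein Ring1b. How many hairpin sequences or clones stood for each target is not in the labels, so a group may be 1 clone, nor is whether replicates are separate cultures. Every p-value therefore measures only the spread between these libraries. No group lost LIF without receiving RA, and effects of the 2 changes cannot be told apart. shZrf1 cells and untransfected cells after RA are not analysed here.

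Poly-A RNA was sequenced strand-specifically with 50 bp reads. The 6 libraries of shRing1b and untransfected cells had 27.4 to 34.1 M gene counts, with multiply aligned reads at 20.0% to 21.7% of entries. The remaining 18 had 37.8 to 57.3 M gene counts and 44.1% to 49.1% such reads, so the 2 sets differ in more than the hairpin. Among the hairpin targets, Med12 stood at 41.7 ± 5.8 CPM with shMed12 and 133 ± 5.5 CPM with shNMC in mESCs (mean ± SD, n = 3 each), and Cdk8 at 12.8 ± 2.3 CPM with shCdk8 and 53.4 ± 3.1 CPM with shNMC. CPM here are counts scaled to TMM-adjusted library sizes. Rnf2 had 52.4, 64.2 and 207 CPM in shRing1b libraries 1, 2 and 3, against 221, 302 and 262 CPM in untransfected cells, so Rnf2 was near the untransfected level in the library labelled shRing1b replicate 3, against that label. The 10 pluripotency markers fixed for the label check, which include Pou5f1, Sox2 and Nanog, were all detected in every group. Their summed level was 3550 to 3850 CPM in shMed12 mESCs and 5390 to 6240 CPM over the shCdk8, shRing1b, shNMC and untransfected mESCs.

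Notch receptors are membrane proteins that ligands on a neighbouring cell activate. Proteases, the last of them gamma-secretase, then release the intracellular domain, which enters the nucleus and joins the DNA-binding protein Rbpj and a Mastermind coactivator to switch on Hes and Hey genes. Hes1 and Hey1 encode basic helix-loop-helix repressors that hold back proneural genes, and in mESCs Hes1 is also known as a gene that responds to signals other than Notch. Med12 and Cdk8 belong to the module of Mediator that carries its kinase, and CDK8 is known to phosphorylate the Notch intracellular domain, which leads to its turnover.

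The promoter windows of Notch3, Notch4 and Dll1 are shown because these genes differed between shMed12 and shNMC cells in both states. Hes1 also differed in both states, but no window was available for it. RefSeq promoters of GRCm38.p6 matched 8 of the 10 genes, with 9 windows of 250 bases before the annotated start. The target genes Hes1 and Hey1 had no entry, so their promoters were not searched. Each is written 5′ to 3′ on the gene's strand. Capitals mark every match, on either strand, to TGGGAA (the core bound by Rbpj), CACNAG (the N box bound by Hes proteins) or AGGTCA (the core bound by nuclear receptors, RA receptors among them).
Notch3 (chr17:32166891-32167140, minus strand): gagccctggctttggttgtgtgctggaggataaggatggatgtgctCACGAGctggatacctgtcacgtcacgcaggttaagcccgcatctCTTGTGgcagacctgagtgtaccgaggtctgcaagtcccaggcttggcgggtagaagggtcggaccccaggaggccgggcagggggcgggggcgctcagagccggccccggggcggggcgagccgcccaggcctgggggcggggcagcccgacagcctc
Notch4 (chr17:34564045-34564294, plus strand): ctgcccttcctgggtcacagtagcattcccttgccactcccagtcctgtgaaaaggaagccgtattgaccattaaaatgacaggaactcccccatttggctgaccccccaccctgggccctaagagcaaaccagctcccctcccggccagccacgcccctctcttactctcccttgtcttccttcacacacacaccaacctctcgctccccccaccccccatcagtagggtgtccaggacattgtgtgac
Dll1 (chr17:15375824-15376073, minus strand): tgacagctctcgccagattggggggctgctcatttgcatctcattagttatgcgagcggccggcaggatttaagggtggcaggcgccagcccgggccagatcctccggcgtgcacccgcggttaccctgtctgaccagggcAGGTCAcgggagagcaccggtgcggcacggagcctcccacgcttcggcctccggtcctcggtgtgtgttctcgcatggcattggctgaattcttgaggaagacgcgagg
The Notch3 window held 2 N boxes, 204 and 159 bases before the start. The Notch4 window held none of the 3 motifs. Dll1 has another start in RefSeq, and of its 2 windows the one printed held an AGGTCA 109 bases before the start and the other held none of the motifs. Notch1 and Notch2 windows held 1 N box each. TGGGAA was in none of the 9 windows, all of which belong to receptor or ligand genes. Of 32851 mouse promoter windows of the same length, 21.6% held TGGGAA, 36.7% CACNAG and 14.0% AGGTCA. A match describes letters only and says nothing of binding.

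Levels of different genes were compared per kilobase of the longest protein-coding transcript (GENCODE M21, GRCm38). In RA shMed12 cells Notch3 was the most abundant of the 10, at 20.8 ± 3.2 CPM per kb (SD, n = 3), ahead of Hes1 at 13.3 ± 1.6, and Notch4 was lowest, at 0.787 ± 0.16 CPM per kb. In shNMC mESCs Hes1 led instead, at 22.4 ± 1.2 CPM per kb. The receptors followed there, with Notch1 at 9.23 ± 1.1, Notch3 at 9.08 ± 1.7, Notch4 at 6.04 ± 0.15 and Notch2 at 5.40 ± 0.29 CPM per kb. The ligands Jag1 (5.95 ± 1.2) and Jag2 (5.30 ± 1.0) lay near Notch2, while Dll1 (3.08 ± 0.35), Hey1 (1.40 ± 0.22) and Dll3 (1.18 ± 0.13 CPM per kb) were lowest. The annotation behind the deposited counts is not given, so these lengths may differ from those that collected the reads.

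Called below means a Benjamini-Hochberg adjusted p under 0.05 in edgeR's quasi-likelihood test over all 16280 genes. With shMed12 in mESCs, 3 of the 10 genes rose and 3 fell against shNMC, where 40.5% of all genes tested were called (20.6% up and 19.9% down). After RA, 2 rose and 2 fell with shMed12 against shNMC, at a background of 41.9% (21.3% up and 20.6% down). With shCdk8, 0 of 10 were called in mESCs (background 3.66%; 1 gene had an unadjusted p under 0.05, and DESeq2 also called 0) and 1 rose after RA (background 7.73%, of which 4.1% up). With shRing1b against untransfected cells 0 of 10 were called at a background of 15.1%, with 1 gene at an unadjusted p under 0.05 and 0 called by DESeq2. The counts of 6 and 4 of 10 for shMed12 thus stand beside backgrounds of 40.5% and 41.9%, and no test sets them apart from those. In a fit to the 18 libraries that leaves out untransfected and shRing1b cells, chosen after seeing the data, 9 members were called with shMed12 after RA, at a background of 55.5% (8992 of 16205 genes), and 5 with shCdk8 after RA, at a background of 23.2% (3760 genes). Comparisons within a state share the same shNMC libraries.

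**Figure D1:**
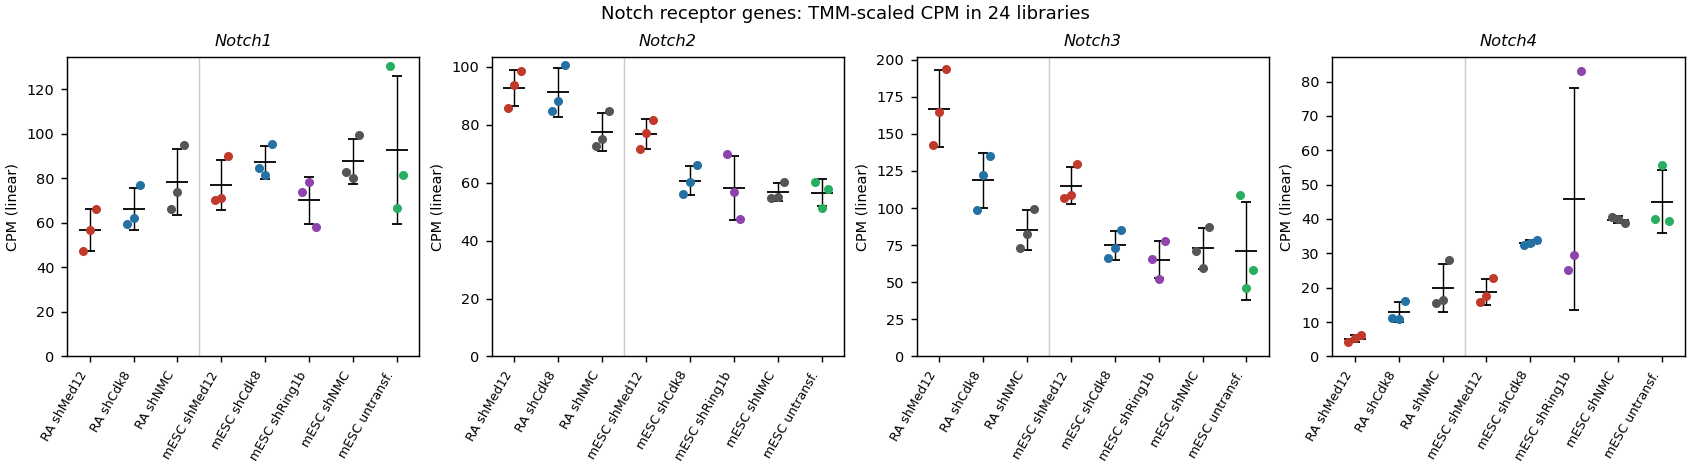
Expression of the 4 receptors in CPM (linear axis) in each library, by group, with points from left to right for replicates 1 to 3, a tick for the group mean and bars for the SD. RA shMed12 libraries lay at 142 to 194 CPM for Notch3, above the 73.2 to 99.5 CPM of RA shNMC libraries, and at 4.07 to 6.10 CPM for Notch4, below the 15.7 to 28.0 CPM of RA shNMC libraries.

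Notch3 and Notch4 encode receptors of the same family, Notch4 being best known from endothelium and Notch3 from vascular smooth muscle, and they moved in opposite directions with shMed12. After RA Notch3 had 142, 165 and 194 CPM with shMed12, against 73.2, 82.8 and 99.5 CPM with shNMC. In mESCs it had 107, 109 and 130 CPM with shMed12, against 71.4, 59.5 and 87.4 CPM with shNMC. In both states all 3 shMed12 libraries lay above all 3 shNMC libraries. Untransfected mESCs had 109, 45.8 and 58.4 CPM, and replicate 1 of these lay within the shMed12 mESC range. The log2 change was 0.66 in mESCs (SE 0.23, edgeR adjusted p = 0.023) and 0.97 after RA (SE 0.23, adjusted p = 0.0016). The mESC call was lost without shMed12 replicate 3 (0.58, adjusted p = 0.084), shNMC replicate 1 (0.67, adjusted p = 0.061) or shNMC replicate 2 (0.54, adjusted p = 0.11). The call after RA was kept in all 6 refits that left out 1 library.

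With shCdk8, Notch3 had 66.3, 73.2 and 85.3 CPM in mESCs, which overlaps the shNMC range, and a log2 change of 0.04 (SE 0.23, adjusted p = 0.95). Its RA values were 98.7, 122 and 135 CPM with shCdk8, of which 1 library lay just below the highest RA shNMC library (log2 0.48, SE 0.23, adjusted p = 0.21). Within pairs of RA libraries with the same number, Notch3, Notch2 and Hes1 were higher with shCdk8 than with shNMC in 3 of 3 pairs. The other 7 genes were lower in 3 of 3 pairs. What share of all genes kept the same direction in 3 of 3 pairs was not counted, so this describes these genes only. With the replicate block Hes1 was again the one member called (Notch3 adjusted p = 0.15, Notch4 adjusted p = 0.14). In shCdk8 cells Notch3 was higher after RA without LIF than in mESCs (log2 0.67, SE 0.23, edgeR adjusted p = 0.017). This call was lost without RA shCdk8 replicate 3 (0.58, adjusted p = 0.065) or mESC shCdk8 replicate 1 (0.60, adjusted p = 0.074). In shMed12 cells the log2 difference between RA and mESCs was 0.54 (SE 0.23, adjusted p = 0.066), and in shNMC cells 0.23 (SE 0.23, adjusted p = 0.41). Neither interaction was called for Notch3, so the RA responses were not shown to differ between lines.

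Notch4 had 4.07, 5.38 and 6.10 CPM after RA with shMed12, 11.3, 11.0 and 16.2 CPM with shCdk8 and 15.7, 16.3 and 28.0 CPM with shNMC. It had 15.9, 17.5 and 22.9 CPM in mESCs with shMed12, 32.4, 33.1 and 33.7 CPM with shCdk8 and 40.7, 40.1 and 38.7 CPM with shNMC. The shMed12 libraries were the lowest in each state and overlapped no other line. Relative to shNMC, Notch4 fell with shMed12 in mESCs (log2 -1.08, SE 0.31, edgeR adjusted p = 0.0083) and after RA (log2 -1.95, SE 0.33, adjusted p = 6.6e-05), a 3.85-fold lower mean. With shCdk8 the log2 change was -0.27 in mESCs (SE 0.31, adjusted p = 0.70), although the groups did not overlap, and -0.64 after RA (SE 0.31, adjusted p = 0.23). These SE rest on a spread estimated over all 8 groups. They include shRing1b, where Notch4 had 25.1, 29.5 and 83.2 CPM, while the SD was 0.69 CPM in shCdk8 and 1.0 CPM in shNMC mESCs.

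Notch4 was lower after RA without LIF in each line tested. The log2 change between RA and mESCs was -1.85 in shMed12 cells (SE 0.33, edgeR adjusted p = 1.6e-04), -1.37 in shCdk8 cells (SE 0.32, adjusted p = 0.0011) and -0.99 in shNMC cells (SE 0.31, adjusted p = 0.011). The shNMC call was lost without RA shNMC replicate 1 (-0.85, adjusted p = 0.062) or replicate 2 (-0.85, adjusted p = 0.061). The difference between the shMed12 and shNMC responses was -0.86 (SE 0.45, adjusted p = 0.32).

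Markers of other cell types stood at other levels in the shMed12 cells. Endothelial markers summed to 111 to 137 CPM in shMed12 mESCs and 174 to 209 CPM in shNMC mESCs. Of 7 tested, 1 was higher and 3 were lower. After RA endothelial markers summed to 78.8 to 94.2 CPM with shMed12 and 202 to 248 CPM with shNMC, with 1 higher and 2 lower. Emcn, a defining endothelial marker, had at most 3 reads in every group. Fibroblast markers summed to 274 to 326 CPM in shMed12 mESCs and 10.4 to 11.2 CPM in shNMC mESCs, where Col3a1, Dcn, Lum and Postn had at most 3 reads, and 6 of 7 tested were higher and 1 lower. Trophectoderm markers summed to 602 to 746 CPM with shMed12 and 76.6 to 95.2 CPM with shNMC, with 7 of 8 higher, and 8 of 10 pluripotency markers were lower. Primitive streak and mesoderm markers summed to 32.1 to 62.6 CPM with shMed12 and 8.3 to 9.45 CPM with shNMC, with 5 of 7 tested higher. After RA the fibroblast sum was 268 to 309 CPM with shMed12 and 11.4 to 13.3 CPM with shNMC. Of 7 tested, 6 were higher and 1 was lower. Trophectoderm markers then summed to 693 to 893 CPM with shMed12 and 99.3 to 108 CPM with shNMC (7 of 8 higher, 1 lower). Endoderm markers summed to 219 to 250 CPM with shMed12 and 335 to 403 CPM with shNMC in mESCs, with 3 of 8 lower. After RA these sums were 246 to 267 and 277 to 296 CPM in turn, with 3 of 8 lower. In bulk RNA, fewer cells of a type and less RNA per cell cannot be told apart, and the part these shifts have in the Notch gene differences was not tested.

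Notch2, a broadly expressed receptor, had 85.9, 93.8 and 98.4 CPM after RA with shMed12, 84.7, 88.1 and 101 CPM with shCdk8 and 72.6, 75.0 and 84.9 CPM with shNMC. It had 71.6, 77.1 and 81.8 CPM in mESCs with shMed12, 56.1, 60.1 and 66.0 CPM with shCdk8 and 54.8, 55.1 and 60.2 CPM with shNMC. The shMed12 mESC libraries lay above both other lines in mESCs, and every RA library lay above every mESC library of its line. Notch2 rose with shMed12 in mESCs (log2 0.44, SE 0.11, edgeR adjusted p = 0.0036), and the change after RA was 0.26 (SE 0.11, adjusted p = 0.069). With RA it rose in shNMC cells (log2 0.45, SE 0.11, adjusted p = 0.0022) and in shCdk8 cells (0.58, SE 0.11, adjusted p = 1.9e-04). In shMed12 cells, where it started higher, the change was 0.27 (SE 0.11, adjusted p = 0.063), and the interaction of -0.18 (SE 0.16, adjusted p = 0.61) was not called.

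Notch1, the receptor best studied in mESC differentiation, was called in none of these comparisons. It ranged over 47.2 to 66.4 CPM with shMed12, 59.3 to 76.9 CPM with shCdk8 and 66.4 to 95.0 CPM with shNMC after RA, and over 70.1 to 89.9, 81.3 to 95.3 and 80.4 to 99.4 CPM in mESCs. The log2 change with shMed12 after RA was -0.46 (SE 0.19, edgeR adjusted p = 0.057), and it passed the threshold without RA shMed12 replicate 3 (-0.59, adjusted p = 0.037) or RA shNMC replicate 1 (-0.57, adjusted p = 0.040). Its RA changes were -0.44 in shMed12, -0.40 in shCdk8 and -0.16 in shNMC cells (adjusted p = 0.079, 0.088 and 0.51).

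The make-up of receptor transcripts follows from these values. Per transcript length, Notch3 made 56.3% to 58.3% of the sum of the 4 receptors in RA shMed12 libraries, 43.5% to 47.9% with RA shCdk8 and 35.7% to 37.3% with RA shNMC. In mESCs its share was 43.7% to 44.5% with shMed12, 30.1% to 33.2% with shCdk8 and 27.3% to 33.1% with shNMC. Notch4 made 1.96% to 2.25% with RA shMed12, 5.23% to 6.64% with RA shCdk8 and 8.94% to 12.2% with RA shNMC, against 17.8% to 22.3% in shNMC mESCs. These shares describe the same libraries again and were not tested.

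**Figure D2:**
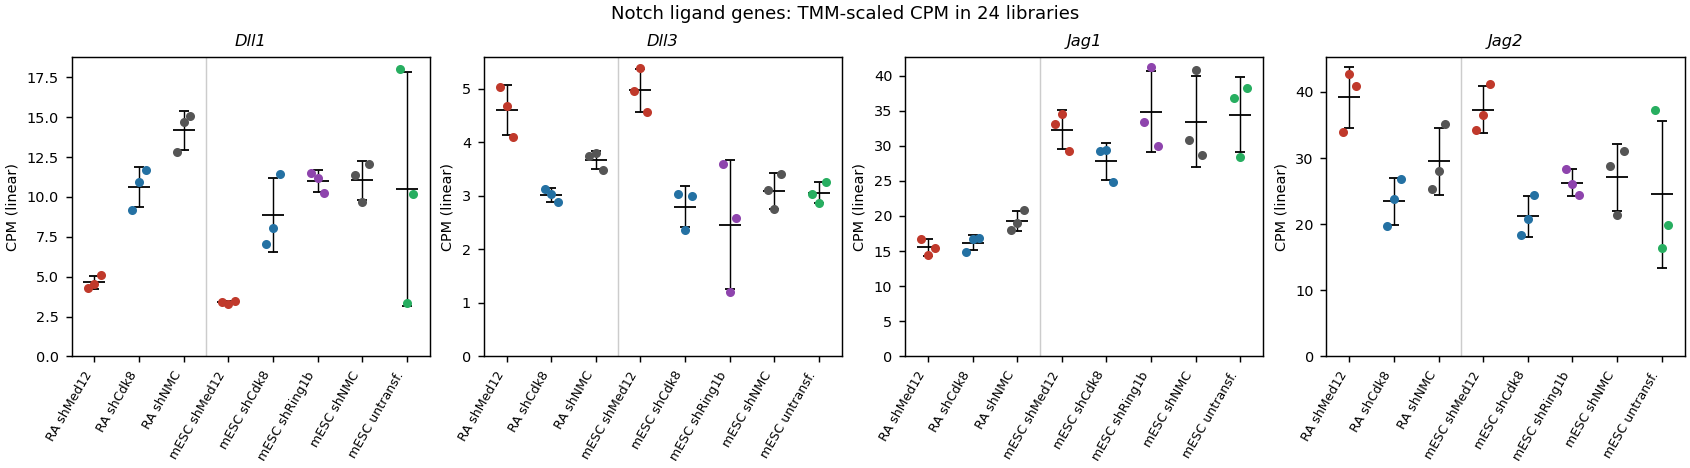
Expression of the 4 ligands in CPM (linear axis) in each library, by group, with points from left to right for replicates 1 to 3, a tick for the group mean and bars for the SD. Dll1 lay at 3.31 to 5.11 CPM in the 6 shMed12 libraries, below the 9.68 to 15.1 CPM of the 6 shNMC libraries.

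Dll1 encodes a ligand that activates Notch on neighbouring cells, and its transcript was lower with shMed12 in both states. After RA it had 4.28, 4.56 and 5.11 CPM with shMed12, 9.21, 10.9 and 11.7 CPM with shCdk8 and 12.8, 14.7 and 15.1 CPM with shNMC. In mESCs it had 3.39, 3.31 and 3.51 CPM with shMed12, 7.07, 8.07 and 11.5 CPM with shCdk8 and 11.4, 9.68 and 12.1 CPM with shNMC. In each state the shMed12 libraries lay below those of both other lines. Untransfected mESCs had 18.03, 3.35 and 10.2 CPM, and replicate 2 of these lay within the shMed12 mESC range. The change against shNMC was -1.70 on the log2 scale in mESCs (SE 0.33, edgeR adjusted p = 2.5e-04) and -1.61 after RA (SE 0.32, adjusted p = 3.6e-04), means that were 3.24-fold and 3.04-fold lower. With shCdk8 the changes were -0.31 in mESCs (SE 0.31, adjusted p = 0.65) and -0.42 after RA (SE 0.31, adjusted p = 0.46). Between RA and mESCs Dll1 changed by 0.45 in shMed12, 0.26 in shCdk8 and 0.36 in shNMC cells, none of which was called.

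Dll3 encodes a ligand relative that acts on Notch in the same cell and is known as an inhibitor. It was among the least abundant of the 10, with 33 reads in the shallowest case. It had 4.96, 5.39 and 4.57 CPM in mESCs with shMed12 and 3.11, 2.75 and 3.42 CPM with shNMC, which do not overlap. It rose (log2 0.68, SE 0.23, edgeR adjusted p = 0.020), a call lost without shMed12 replicate 2 (0.64, adjusted p = 0.062) or shNMC replicate 2 (0.61, adjusted p = 0.074). After RA it had 5.04, 4.69 and 4.11 CPM with shMed12 and 3.75, 3.798 and 3.48 CPM with shNMC (log2 0.33, SE 0.22, adjusted p = 0.25).

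Jag1, a ligand of the Jagged class, changed with RA. It had 16.8, 14.4 and 15.4 CPM with shMed12, 14.9, 16.7 and 16.9 CPM with shCdk8 and 18.1, 19.0 and 20.8 CPM with shNMC after RA. In mESCs it had 33.1, 34.5 and 29.3 CPM with shMed12, 29.2, 29.4 and 24.8 CPM with shCdk8 and 30.8, 40.8 and 28.6 CPM with shNMC. All 9 RA libraries lay below all 9 mESC libraries of these lines. Jag1 fell by 1.06 on the log2 scale in shMed12 cells (SE 0.14, edgeR adjusted p = 5.9e-06), by 0.78 in shCdk8 cells (SE 0.14, adjusted p = 9.0e-05) and by 0.79 in shNMC cells (SE 0.14, adjusted p = 7.4e-05). No hairpin moved it past the threshold within a state, with log2 changes of -0.05 and -0.27 in mESCs and -0.31 and -0.25 after RA for shMed12 and shCdk8 in turn. After RA, however, all shMed12 and all shCdk8 libraries lay below all shNMC libraries.

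Jag2, the other Jagged ligand, had 34.0, 42.7 and 40.9 CPM after RA with shMed12, 19.8, 23.8 and 26.9 CPM with shCdk8 and 25.3, 28.1 and 35.2 CPM with shNMC. In mESCs it had 34.2, 36.6 and 41.3 CPM with shMed12, 18.3, 20.8 and 24.4 CPM with shCdk8 and 28.7, 21.3 and 31.1 CPM with shNMC. The control lay between the hairpin lines on average and differed from neither at the threshold. The log2 changes with shMed12 were 0.47 (adjusted p = 0.086) and 0.41 (adjusted p = 0.13), and with shCdk8 -0.35 (adjusted p = 0.41) and -0.33 (adjusted p = 0.38), in mESCs and after RA in turn. Between RA and mESCs Jag2 stayed within 0.15 on the log2 scale in each line, with SE of 0.21 each.

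**Figure D3:**
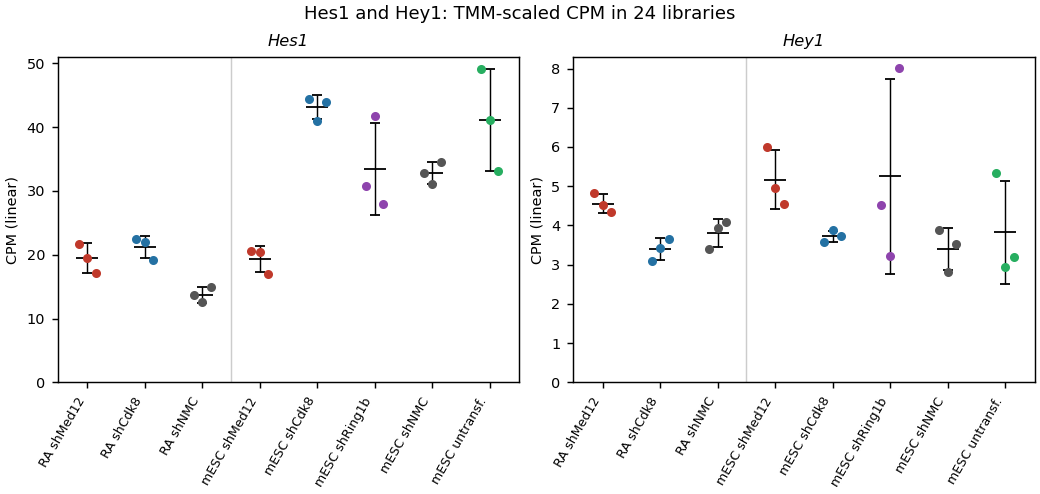
Expression of Hes1 and Hey1 in CPM (linear axis) in each library, by group, with points from left to right for replicates 1 to 3, a tick for the group mean and bars for the SD. Hes1 lay at 16.9 to 21.8 CPM in both shMed12 groups, against 12.5 to 14.99 CPM in RA shNMC libraries and 31.1 to 34.6 CPM in shNMC mESCs.

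Hes1 had 21.8, 19.6 and 17.2 CPM after RA with shMed12, 22.4, 22.0 and 19.2 CPM with shCdk8 and 13.7, 12.5 and 14.99 CPM with shNMC. In mESCs it had 20.5, 20.4 and 16.9 CPM with shMed12, 44.3, 40.9 and 44.0 CPM with shCdk8 and 32.7, 31.1 and 34.6 CPM with shNMC. The shMed12 libraries lay below every other mESC library and above every RA shNMC library, and their 2 states overlapped. Hes1 was lower after RA without LIF in shNMC cells (log2 -1.26, SE 0.15, edgeR adjusted p = 4.1e-07) and in shCdk8 cells (-1.02, SE 0.14, adjusted p = 4.9e-06). In shMed12 cells the log2 difference was 0.02 (SE 0.14, adjusted p = 0.94). The difference between the shMed12 and shNMC responses was 1.27 (SE 0.20, adjusted p = 6.4e-04), in a comparison where 5.04% of all genes were called (1.74% up) and 1 of the 10 was. It was called in all 12 refits without 1 library, at 1.14 to 1.36. Between shCdk8 and shNMC the responses differed by 0.24 (SE 0.20, adjusted p = 1.0), and there 0 of 10 members were called at a background of 0.0369%, with 0 at an unadjusted p under 0.05 and 0 by DESeq2.

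Set against shNMC within a state, Hes1 fell with shMed12 in mESCs (log2 -0.77, SE 0.14, edgeR adjusted p = 1.9e-04) and rose with it after RA (0.51, SE 0.15, adjusted p = 0.0075). The RA call was lost without RA shMed12 replicate 1 (0.39, adjusted p = 0.065) or RA shNMC replicate 2 (0.43, adjusted p = 0.055). With shCdk8 it rose after RA (0.63, SE 0.14, adjusted p = 0.0090), the one member called for that hairpin, and this call was lost without RA shNMC replicate 2 (0.57, adjusted p = 0.059). Pluripotency markers summed to 1660 to 2110 CPM with shCdk8 and 2410 to 2910 CPM with shNMC after RA, with 8 of 10 lower, and their part in the Hes1 difference was not tested. In mESCs with shCdk8 the change was 0.39 (SE 0.14, adjusted p = 0.13), with no overlap between the groups, and it was called in the 18-library fit (0.39, adjusted p = 0.010).

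Hey1, the other target, was low in all groups, at 2.81 to 8.02 CPM. It had 6.00, 4.95 and 4.55 CPM in mESCs with shMed12 and 3.88, 2.81 and 3.52 CPM with shNMC, which do not overlap (log2 0.60, SE 0.25, edgeR adjusted p = 0.057). It was called there by DESeq2 (adjusted p = 0.037). Its other log2 changes for shMed12 and shCdk8 against shNMC and for RA lay between -0.18 and 0.26, and none was called.

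**Figure D4:**
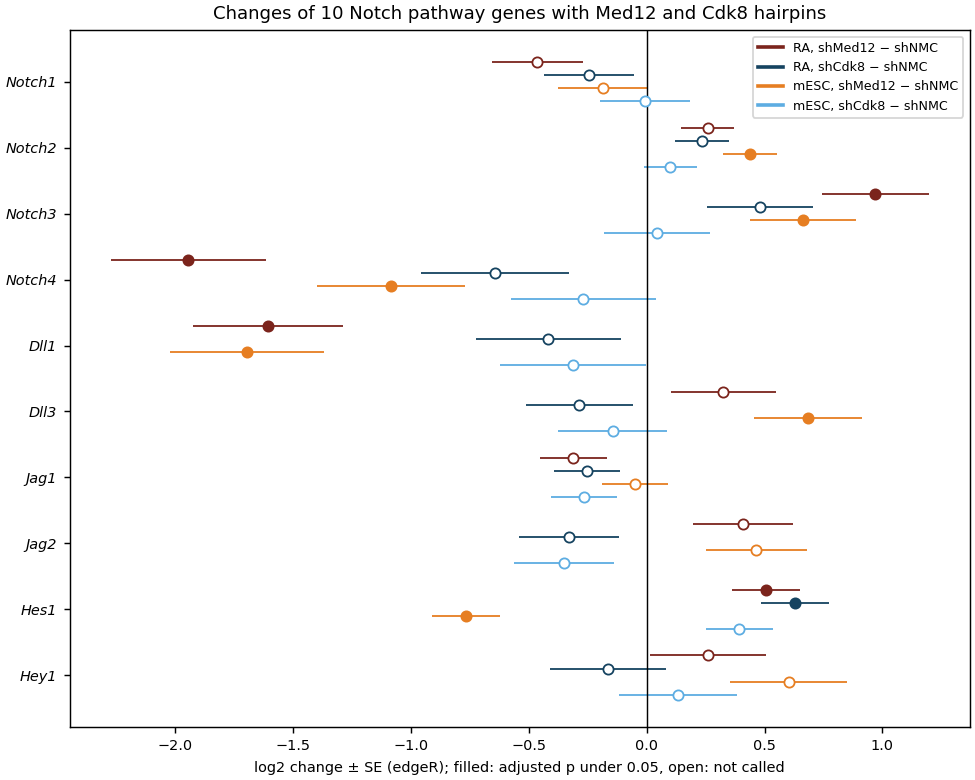
Log2 changes of the 10 genes for shMed12 and shCdk8 against shNMC in each state, with bars for the SE, filled points for genes called at an adjusted p under 0.05 and open points for the rest. Dll1 and Notch4 lay at -1.70 and -1.08 with shMed12 in mESCs and at -1.61 and -1.95 after RA, while Hes1 lay at -0.77 and 0.51.

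Set directly against shCdk8, the other Mediator kinase module hairpin, shMed12 differed in 7 of the 10 genes in mESCs (4 higher, 3 lower), where 35.8% of all genes were called (18.4% higher, 17.4% lower), and in 4 after RA (2 higher, 2 lower), at a background of 41.4% (21.3% higher, 20.1% lower). In mESCs Hes1 was lower with shMed12 (log2 -1.16, SE 0.15, edgeR adjusted p = 1.6e-06). Dll1 was lower (-1.38, adjusted p = 0.0019), as after RA (-1.19, adjusted p = 0.0047), and so was Notch4 (-0.82, adjusted p = 0.046, and -1.30, adjusted p = 0.0030). Jag2 was higher (0.82, adjusted p = 0.0046, and 0.74, adjusted p = 0.0082), and so was Dll3 (0.83, adjusted p = 0.0068, and 0.61, adjusted p = 0.034). Notch2 (0.34, adjusted p = 0.023) and Notch3 (0.62, adjusted p = 0.036) were higher in mESCs, and after RA their adjusted p was 0.88 and 0.086. Hes1 after RA differed by -0.12 (SE 0.14, adjusted p = 0.51).

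Several of these calls rest on single libraries. The mESC call of Notch2 was lost without shCdk8 replicate 1, shCdk8 replicate 2 or shMed12 replicate 3 (adjusted p = 0.052 to 0.090). Those of Notch3 and Notch4 were lost in every refit except the one without shCdk8 replicate 3 for Notch3 and without shMed12 replicate 3 for Notch4 (adjusted p = 0.057 to 0.13 and 0.087 to 0.16). That of Dll3 after RA was lost in every refit except without RA shMed12 replicate 3 (adjusted p = 0.066 to 0.12).

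**Figure D5:**
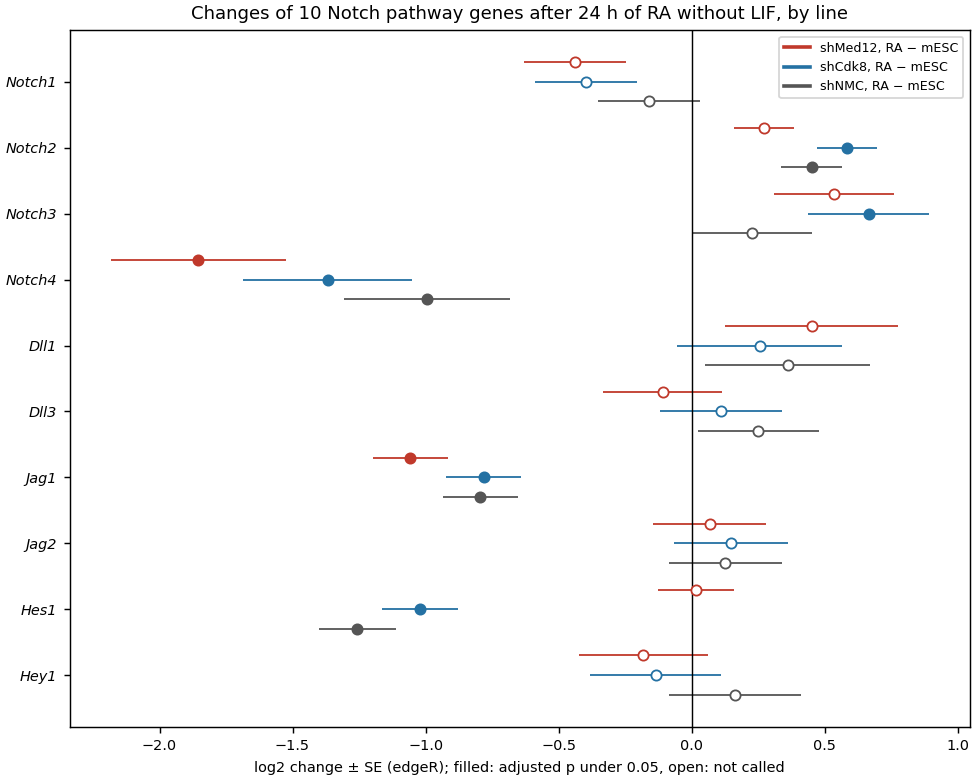
Log2 changes of the 10 genes between RA and mESC libraries of the same line, with bars for the SE, filled points for genes called at an adjusted p under 0.05 and open points for the rest. Hes1 lay at 0.02 in shMed12 cells, against -1.02 in shCdk8 cells and -1.26 in shNMC cells.

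With RA, 1 of the 10 genes rose and 3 fell in shNMC cells, where 51.4% of all genes were called (27.3% up, 24.1% down). In shCdk8 cells 2 rose and 3 fell at a background of 51.7% (26.7% up, 25.1% down), and in shMed12 cells 0 rose and 2 fell at 37.1% (17.5% down). Notch4 and Jag1 fell in each of the 3 lines. Pluripotency markers summed to 2410 to 2910 CPM in RA shNMC cells and 6180 to 6240 CPM in shNMC mESCs, with 9 of 10 lower, and their part in the RA changes was not tested. Counts of 2 to 5 among 10 genes were not set apart from these backgrounds by any test.

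Some of the 10 genes lay far apart between libraries of 1 group, Notch1 and Dll1 in untransfected cells and Notch4 with shRing1b. Notch1 had 73.8, 78.5 and 58.3 CPM with shRing1b and 130, 66.7 and 81.6 CPM in untransfected cells, and Dll1 had 11.5, 11.2 and 10.2 CPM with shRing1b and 18.03, 3.35 and 10.2 CPM in untransfected cells. Notch4 had 25.1, 29.5 and 83.2 CPM with shRing1b, the last in the library that goes against its label, and 40.0, 55.7 and 39.5 CPM in untransfected cells. Its log2 change was 0.03 (SE 0.31, edgeR adjusted p = 0.96), and -0.72 without that library (adjusted p = 0.023). Endoderm markers summed to 3490 CPM in that library, the highest of the 3 shRing1b libraries, against 427 to 657 CPM in untransfected cells, and their part in the Notch4 value was not tested. Other calls appeared without 1 library: Jag2 (0.55, adjusted p = 0.045) and Hey1 (0.79, adjusted p = 0.049) without untransfected replicate 1, and Hes1 (-0.49, adjusted p = 0.025) and Hey1 (0.71, adjusted p = 0.049) without shRing1b replicate 2. With shNMC against untransfected cells 0 of 10 were called at a background of 0.00614%, with 1 gene (Hes1, log2 -0.33) at an unadjusted p under 0.05 and 0 called by DESeq2. In the other 18 libraries the library numbered 3 had the highest Notch1, Notch2, Notch3 and Dll1 values in 6 of 6 groups. It had the highest Notch4 and Jag2 values in 5 of 6, Jag1, Hes1 and Hey1 in 2 of 6 and Dll3 in 1 of 6. The share over all genes was not counted.

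Over the 8 groups the span of the means was widest for Notch4, 8.86-fold between shRing1b mESCs (45.9 CPM) and RA shMed12 cells (5.18 CPM). Without the library that goes against its label, shRing1b mESCs averaged 27.3 CPM, and the span was 8.69-fold, between untransfected cells (45.1 CPM) and RA shMed12 cells. Dll1 spanned 4.17-fold, between RA shNMC (14.2 CPM) and shMed12 mESCs (3.40 CPM), and Hes1 3.14-fold, between shCdk8 mESCs (43.1 CPM) and RA shNMC (13.7 CPM). Notch3 spanned 2.56-fold, Jag1 2.25-fold and Dll3 2.02-fold, and the other 4 between 1.55-fold and 1.85-fold. When the 8 groups are ordered by mean, all 7 neighbouring pairs overlapped for Notch1, Jag2 and Hey1. Of the 7 pairs, 4 overlapped for Notch4 and Dll1, 5 for Notch3, Dll3, Jag1 and Hes1, and 6 for Notch2. For Hes1, the breaks lay below shNMC mESCs and above RA shNMC. For Dll1 they lay above shNMC mESCs, and on both sides of RA shMed12. For Notch4 they lay on both sides of shCdk8 mESCs and above RA shMed12. A break concerns only groups adjacent by mean and need not be a gap over all 8 groups. Untransfected Dll1 values, 3.35 to 18.03 CPM, crossed each Dll1 break. The shRing1b Notch4 values, 25.1 to 83.2 CPM, crossed the breaks on both sides of shCdk8 mESCs.

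The other genes of the pathway were described from a list of 55, of which 54 passed the filter. With shMed12 in mESCs 13 rose and 9 fell (40.7%, background 40.5%; median log2 change 0.05 against -0.01 over all genes), and after RA 12 rose and 9 fell (38.9%; background 41.9%). With RA in shNMC cells 17 rose and 9 fell (48.1%; background 51.4%). With shCdk8, 0 rose and 1 fell in mESCs (1.85%; background 3.66%) and 1 rose and 3 fell after RA (7.41%; background 7.73%). With shRing1b 4 rose and 6 fell (18.5%; background 15.1%). No test sets these shares apart from their backgrounds. The shRing1b group includes the library against its label. When only shRing1b and untransfected libraries were fitted, 0 of all genes tested were called. Each shRing1b call of a pathway gene named below carries that limit. With shNMC against untransfected cells 0 of 54 were called, with 1 at an unadjusted p under 0.05.

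Among the glycosyltransferases that modify Notch, Lfng rose with shMed12 in both states (log2 1.16 in each), while Rfng fell (-0.48 and -0.42), as did Mfng (-0.55 in mESCs and -0.72 after RA). Poglut1, which adds glucose to the receptor, fell with shMed12 in mESCs (-0.61) and after RA (-0.26, edgeR adjusted p = 0.031) and with shRing1b (-0.54). With RA it fell in shMed12 (-0.27), shCdk8 (-0.68) and shNMC cells (-0.62). Rfng also fell with shCdk8 in both states (-0.46 and -0.58), the only pathway gene of the list called for shCdk8 in mESCs. Furin, a protease that cleaves the receptor during maturation, rose with shMed12 (1.08 in mESCs and 0.70 after RA), and the gamma-secretase subunit Psen2 rose with it after RA (0.70). In RA shNMC cells Aph1b (1.63) and Aph1c (0.86) rose, a pair of near-identical paralogues. Reads that align to both would fall among the multiply aligned reads left out of the gene counts, so both are uncertain.

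In the nuclear complex, Rbpj fell with RA in shNMC cells (log2 -0.86, SE 0.086, edgeR adjusted p = 5.5e-08), to 136 ± 4.9 CPM with RA, against 248 ± 13 CPM in shNMC mESCs (n = 3 each). Rbpj also fell with RA in shCdk8 cells (-0.93) and in shMed12 cells (-0.97). It was lower with shMed12 after RA (-0.29, adjusted p = 0.010) and with shRing1b (-0.42, adjusted p = 0.0028). Maml3, a Mastermind coactivator, rose with RA in shNMC cells (1.83) and in shCdk8 cells (2.17) and with shMed12 in mESCs (1.82). It was called higher with shRing1b (2.41), at 3.13 ± 2.6 CPM with shRing1b and 0.578 ± 0.19 CPM in untransfected cells (SD, n = 3 each), groups that overlapped and of which shRing1b includes the library against its label. Maml2 rose with shCdk8 (1.24) and with shMed12 (0.62) after RA and with RA in shCdk8 cells (0.95), and fell with shRing1b (-0.96, adjusted p = 0.011). Kat2b, an acetyltransferase cofactor, fell with shMed12 in both states (-0.68 and -1.21).

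Of the inhibitors, Nrarp, itself a Notch target, rose with shMed12 in mESCs (log2 0.73). It was called higher with shRing1b (0.55, edgeR adjusted p = 0.043), at 7.04 ± 1.3 CPM against 4.8 ± 0.78 CPM in untransfected cells (mean ± SD), groups that overlapped. Dtx1 fell with shMed12 in mESCs (-0.62) and with RA in shNMC cells (-1.08). Numb rose with RA in shNMC (0.45), shCdk8 (0.51) and shMed12 cells (0.44). Of the ligases that act on ligands, Neurl1b rose with RA in shNMC (1.56), shCdk8 (1.31) and shMed12 cells (1.52). Mib2 fell with RA in shNMC (-0.76) and shCdk8 cells (-0.85), and with shMed12 in mESCs (-0.73). Other Hes and Hey genes included Hes6, higher with shMed12 in both states (0.65 and 0.46), and Hes2, lower with shMed12 in mESCs (-1.0) and with RA in shNMC cells (-1.10). Hes7 rose with shMed12 (2.08 in mESCs) but had 29 reads in the 3 shMed12 libraries and 7 in the 3 shNMC libraries. Dlk2 and Dner, relatives of the ligands, rose with shMed12 in both states (3.73 and 3.81 for Dlk2, 1.25 and 0.93 for Dner).

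Of the 5 proneural genes tested, a class that Hes proteins repress, 3 rose and 1 fell with RA in shNMC cells. There 27.3% of all genes rose and 24.1% fell. With RA 3 rose and 1 fell in shCdk8 cells (background 51.7%), and 2 rose and 1 fell in shMed12 cells (37.1%). With shMed12 against shNMC 0 rose and 2 fell in mESCs (background 40.5%), and 0 rose and 3 fell after RA (41.9%). Whether Hes1 has a part in these changes was not tested. Neurod1 fell with RA in shNMC cells (log2 -3.17), where it averaged 1.2 ± 0.17 CPM, against 10.8 ± 3.0 CPM in shNMC mESCs (SD, n = 3 each), and Atoh1 rose there (2.73). 3 of the 54 pathway genes (5.56%, at a background of 5.04%) differed in their RA response between shMed12 and shNMC cells, Dtx1 (0.94, adjusted p = 0.023), Neurod1 (2.15, adjusted p = 0.014) and Kat2b (-0.53, adjusted p = 0.045), which were named after their values were seen.

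The genes most like each member over the 24 libraries were found by Pearson's r of log2 CPM among 11204 candidates. The libraries share hairpin lines, states and technical sets, so r is a description. Notch4 was closest to Lrrc2 (0.970) and Cry1 (0.968), Notch2 to Rai1 (0.970) and Gpc1 (0.968), Notch3 to Rab11fip3 (0.960) and Arhgef17 (0.941), and Notch1 to Inpp5d (0.863) and Med13l (0.854). Of the ligands, Jag1 was closest to Atp1b1 (0.945) and Srfbp1 (0.944), Jag2 to AW555464 (0.936) and Fam83f (0.900), Dll1 to Arrdc4 (0.925) and Galnt6 (0.913), and Dll3 to Gng3 (0.889) and Plvap (0.883). Hes1 was closest to Parvb (0.945) and Pros1 (0.914), and Hey1 to Igfbp4 (0.875) and Ier3 (0.865).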

How the data were processed

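The authors deposited raw read counts per gene symbol, 1 table per library. Build mm9, the software HTSeq 0.6.1p1, STAR 2.3.1z13, DESeq2 1.6.3, SAMtools 1.2 and bcl2fastq 1.8.4 are named, with no roles, per the submitters' processing notes. Neither annotation nor strand setting is given in these sources. Left out were 5 entries per library that name no gene: multiply aligned reads (20.0% to 49.1% of entries), reads in no feature (8.70% to 17.3%), ambiguous reads (0.111% to 0.197%) and smaller classes. The floor of 3 counts was 0.0464 to 0.120 CPM and covers counting error only.

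Counts were fitted with edgeR 4.0.16 under R 4.3.3 (TMM scaling, low counts removed by filterByExpr, robust quasi-likelihood, 8 group means from 24 libraries, leaving 16 residual degrees of freedom, and a common biological coefficient of variation of 0.145). Tests are two-sided, and 13 comparisons were each adjusted over 16280 genes. Each SE is the absolute log2 change over the root of its F value. Replicates of every group differed by more than counting noise. Alternatives were DESeq2 1.42.0, median-ratio size factors, no filter, the groups compared alone, a replicate block, each library left out, and, chosen after seeing the data, a fit to 18 libraries. The fit was tested on simulated counts of 16280 genes: for shMed12 against shNMC in mESCs it recovered 73% of changes of 1 log2 unit and 96% of 2, and for the shMed12 interaction 55% and 81%, with false calls making up 5.06% and 6.85% of the calls. In the simulation only a small part of the genes was changed, and the rest kept the same mean in all groups. In the data 40.5% of genes were called for shMed12 in mESCs, so these rates need not hold there.

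Residuals of libraries with the same replicate number correlated over 0.1 in all 3 pairs for RA shCdk8 with RA shNMC (0.475, 0.287, 0.537), mESC shMed12 with mESC shCdk8 (0.195, 0.157, 0.339) and RA shCdk8 with mESC shCdk8 (0.358, 0.169, 0.371). Those numbers were taken as pairs from the data. Groups unlike in both line and state did so too: mESC shCdk8 with RA shNMC (0.356, 0.143, 0.41), and mESC shMed12 with RA shCdk8 (0.284, 0.185, 0.356) and with RA shNMC (0.29, 0.158, 0.373). Such correlation is therefore not particular to matched groups, and whether the numbers mark shared cultures was not tested. The genes and lists were chosen with earlier results of these data known. Beside the 10 genes, the text names up to 3 called genes with the lowest p of each pathway list in 6 comparisons and the 2 genes nearest to each member among those with a group mean of at least 5 CPM. Some genes that this rule names are not reported here.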

Additional observations from a re-analysis of the deposited data

Results flagged for a closer look

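The RA response of Hes1 differed between shMed12 and shNMC cells by 1.27 on the log2 scale (SE 0.20, edgeR adjusted p = 6.4e-04), by an interaction term. Hes1 averaged 19.5 ± 2.3 CPM after RA and 19.3 ± 2.0 CPM in mESCs with shMed12, against 13.7 ± 1.2 CPM after RA and 32.8 ± 1.7 CPM in mESCs with shNMC (SD, n = 3 each).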

How the results depend on the processing

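Of 130 gene-by-comparison results (10 genes in 13 comparisons), 34 were calls. Without 1 library 24 of the 34 were kept in every refit and 10 were lost in at least 1. Of 900 such refitted results, 863 stayed on the same side of the threshold, 30 lost a call, 6 gained one and 1 turned its direction at a call (Notch4 with shRing1b, -0.72 without shRing1b replicate 3 and up to 0.32 without replicate 1). Median-ratio size factors kept all 34 calls and added 0, DESeq2 kept all 34 and added 3, and no filter kept 32 and lost 2 (Notch3 and Notch4 between shMed12 and shCdk8 mESCs, adjusted p = 0.057 and 0.075). Without 1 library the number of members called was 0 to 2 for shRing1b, 0 to 1 for shCdk8 after RA and 4 to 6 for shMed12 against shCdk8 in mESCs.

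With shNMC in place of untransfected cells, shRing1b had 0 members called. With only the groups compared, the number called was 2 for shCdk8 in mESCs, 6 for RA in shMed12 cells, 8 for shMed12 after RA, 3 for shCdk8 after RA and 2 for the shMed12 interaction, where 15.7%, 52.7%, 52.8%, 17.3% and 14.0% of all genes were called in that order. In the 18 libraries of 1 technical set these were 1, 6, 9, 5 and 2, at 16.3%, 52.3%, 55.5%, 23.2% and 16.3% of all genes, the second interaction call being Notch4 (-0.85, adjusted p = 0.048), with no member call lost. With the replicate block, 7 members were called for shMed12 in mESCs (Hey1 added, 0.61, adjusted p = 0.047) and 3 for RA in shMed12 cells (Notch3 added, 0.54, adjusted p = 0.047); those pairs of groups share only a number, and the block changed no other call.

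Counts over all genes moved more, and ranges without 1 library cover the refits that moved them over 1.5 times. For shCdk8 in mESCs 596 became 1107 with DESeq2, 905 with the replicate block, 2334 with its own groups, 2645 in the 18 libraries and 170 to 282 without 1 library. For shCdk8 after RA 1259 became 2744, 3760 and, without 1 library, 482 to 703. For shRing1b 2459 became 0 with its own groups, 1328 without untransfected replicate 3 and 3900 without shRing1b replicate 3. For the shMed12 interaction 820 became 1250 with DESeq2, 2237, 2642 and 489 to 528, and for the shCdk8 interaction 6 became 27, 11 with the block, 38, 67 and 3. Fewer residual degrees of freedom and a different spread enter these fits, and the cause was not tested.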
